A study of Drosophila melanogaster with 6 samples.

Results

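The genes described here encode the sarcomere and the contractile apparatus of Drosophila melanogaster muscle. They were chosen as a written list of 33 gene symbols, grouped into thick filament, thin filament and troponin, Z-disc and titin, and energy and calcium genes. The TPM table of 15135 features (TPM, is a read count corrected for gene length and library size) holds 32 of the 33. The missing symbol is SERCA, whose row stands under the older symbol Ca-P60A and is given separately. The 6 libraries were made from polyadenylated RNA of whole embryos of about stage 14, wild type in 3 and spo mutant in 3. The spo gene encodes a cytochrome P450 of the pathway that makes the steroid hormone ecdysone, and the study asked which genes lie downstream of that hormone. The sources used here do not give the spo allele, the wild-type strain, the number of embryos per library or how mutants were recognised. Separate collections are not stated either, and p-values therefore reflect library-to-library spread, which may be technical.

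A sarcomere is the repeating contractile unit of striated muscle. Myosin thick filaments pull on actin thin filaments, which are anchored in Z-discs, while giant proteins of the titin type span from the Z-disc to the thick filament. Tropomyosin and the troponin complex block the thin filament until calcium, released from internal stores, binds troponin C. In the fly embryo, muscle fibres form by fusion of myoblasts, and the genes for contractile proteins come on as fibres differentiate. The list is not limited to embryonic muscle, as fln, Act88F and Act79B belong to flight or other adult muscle. Values from whole embryos do not separate body wall muscle, gut muscle and heart. In them, a smaller number of muscle cells cannot be told apart from less RNA per cell.

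The rebuilt depth ran from 50171144 to 73657876 reads per library, at which 1 read in a gene of 1 kb was worth 0.0315 to 0.0460 TPM. Of the 32 genes, 24 passed the filter of at least 1 TPM in at least 3 libraries, and all 24 lay above 1 TPM in all 6. The other 8 lay below it. Of the 24 tested genes, 15 were lower in spo and 4 were higher (limma on log2(TPM + 1), Benjamini-Hochberg adjusted p below 0.05). Among all 10019 features tested, 27.9% were lower and 33.9% higher by the same rule. The median log2 difference, spo minus wild type, was -0.28 over the 24 genes and 0.02 over all features tested. Because so many features passed, differences were also tested against a log2 change of 0.5. By that test 6 of the 24 were lower, against 4.08% of all features tested, and 0 were higher, against 4.6%. The 0 higher genes of that test compare with 4 higher genes in the test against no change.

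**Figure D1:**
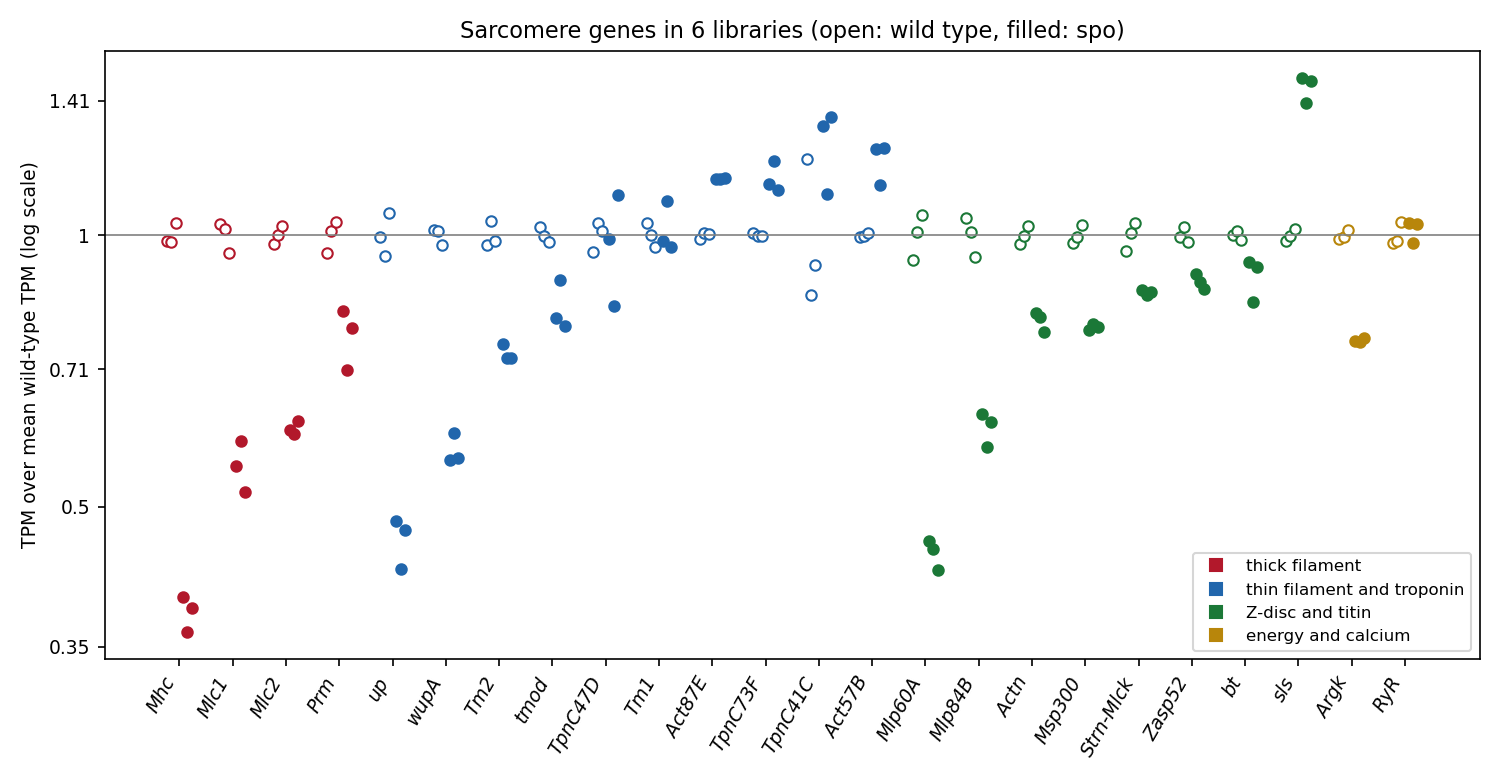
TPM of the 24 tested sarcomere genes in each library, divided by the wild-type mean of the gene, on a log axis. Open circles are the 3 wild-type libraries and filled circles the 3 spo libraries. The steepest falls are Mhc, up and Mlp60A, and sls is the steepest rise.

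**Figure D2:**
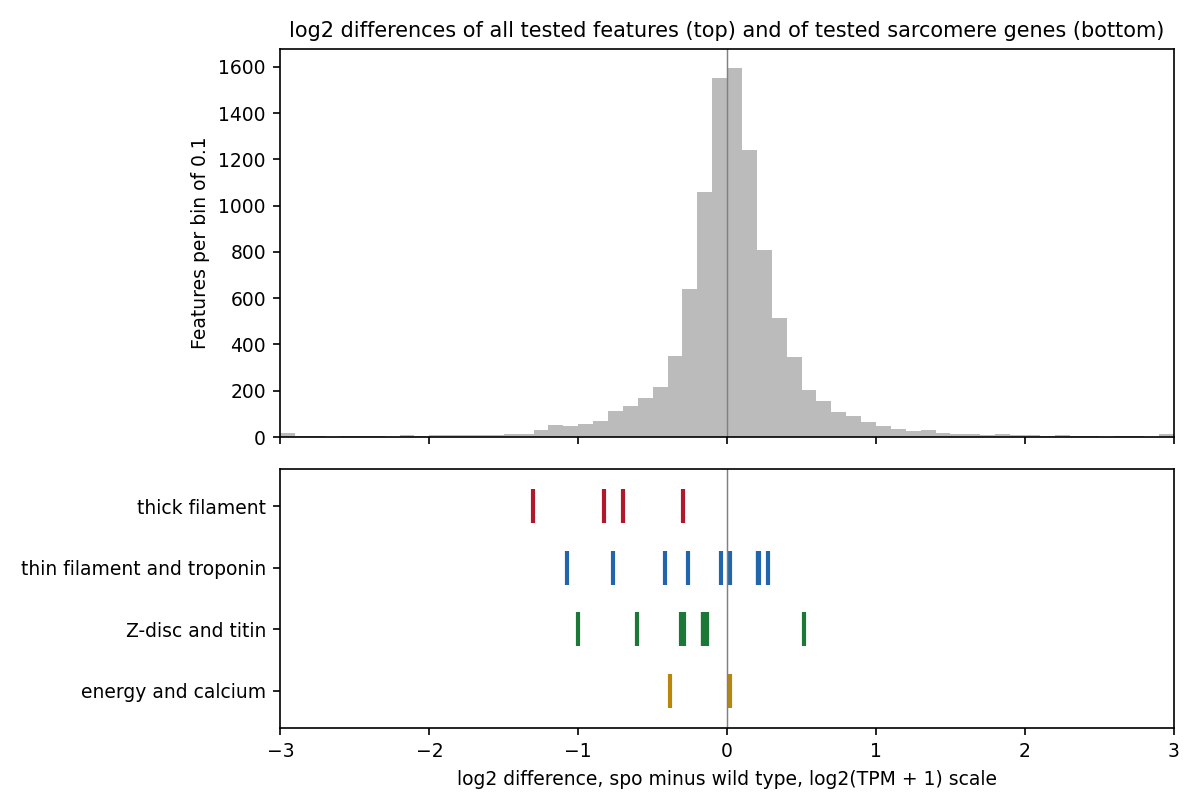
Histogram of log2 differences (spo minus wild type, bins of 0.1) for the 10019 tested features, above tick marks for the 24 tested sarcomere genes by role. Values beyond 3 in either direction are held in the outermost bins. The 4 thick filament ticks all lie left of 0, while the thin filament ticks lie on both sides.

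The 4 thick filament genes that passed the filter were all lower in spo, against 27.9% lower over all features tested. A count over 4 genes is small. Mhc, the 1 gene for muscle myosin heavy chain in the fly, lies on 2L, 16766566 to 16788766 (dm6). It stood at 25.6, 25.5 and 26.7 TPM in wild-type replicates 1, 2 and 3 and at 10.3, 9.44 and 10.03 TPM in spo replicates 1, 2 and 3. The groups were far apart, with wild type 2.61-fold over spo, and Mhc fell by 1.30 on the log2 scale (SE 0.05, limma adjusted p = 2.27e-06). Among the 10019 differences, that of Mhc ranked 133 from the lowest.

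Mlc1 on 3R, 27657078 to 27660177, encodes the essential (alkali) light chain of muscle myosin, and Mlc2 on 3R, 30171438 to 30174551, the regulatory light chain. Mlc1 was measured at 46.6, 46.0 and 43.3 TPM in wild type and at 25.2, 26.8 and 23.5 TPM in spo. Mlc2 was measured at 120.1, 122.8 and 125.7 TPM in wild type and at 74.7, 74.1 and 76.6 TPM in spo. For neither light chain did the genotypes overlap. Mlc1 fell by 0.82 (SE 0.05, limma adjusted p = 1.79e-05) and Mlc2 by 0.70 on the log2 scale (SE 0.03, limma adjusted p = 2.47e-06). Paramyosin, the core protein of the thick filament encoded by Prm, moved least, from 4.56, 4.82 and 4.94 TPM to 3.94, 3.39 and 3.77 TPM (log2 difference -0.30, limma adjusted p = 0.00743).

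The fall of Mhc was steeper than that of its light chains. The ratio of Mhc to Mlc2 TPM was 0.213, 0.208 and 0.213 in the wild-type libraries and 0.138, 0.127 and 0.131 in the spo libraries. The ratio of Mhc to Mlc1 TPM averaged 0.574 ± 0.038 and 0.396 ± 0.039 (SD, n = 3). Both ratios were lower in spo in 3 of 3 libraries, with an exact two-sided permutation p of 0.1, the smallest that 3 against 3 libraries allow. The ratio of Mlc2 to Mlc1 overlapped between genotypes, at 2.72 ± 0.17 and 2.995 ± 0.245 (exact permutation p = 0.2). Over the 17 family shares, sums and ratios tested in this way, the smallest Benjamini-Hochberg adjusted p was 0.17.

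The remaining 3 thick filament genes lay below 1 TPM. Flightin, a thick filament protein of indirect flight muscle encoded by fln, had 4, 1 and 10 reads in wild type and 0, 0 and 1 reads in spo. Pooled over libraries, its rate was 14.8 times higher in wild type, with an exact 95% interval of 2.28 to 624 that covers counting error only. Antisense RNA CR45161 shares 61.6% of the exon bases of fln and had 7 reads over the wild-type libraries, and the sources used here do not state the strand setting of the counting. Unc-89, which encodes the M-line protein obscurin, ran the other way, at 0.546, 0.507 and 0.489 TPM in wild type and 0.642, 0.677 and 0.679 TPM in spo. Its pooled read rate in spo was 1.31 times that in wild type (exact 95% interval 1.17 to 1.46, counting error only). The 12 to 32 reads per library of Mf, which encodes the thick filament protein myofilin, overlapped between genotypes.

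Of the 10 thin filament genes tested, 4 were lower, 3 higher and 3 did not pass. These shares of 40% and 30% lie near the 27.9% lower and 33.9% higher of all features tested, so the counts are no result about the group. The troponin complex has an inhibitory subunit, troponin I, encoded by wupA on X, 18105568 to 18116922, and a tropomyosin-binding subunit, troponin T, encoded by up on X, 13593474 to 13602578. wupA stood at 39.7, 39.7 and 38.2 TPM in wild type and at 22.1, 23.7 and 22.2 TPM in spo. up stood at 38.1, 36.3 and 40.6 TPM in wild type and at 18.5, 16.4 and 18.1 TPM in spo. Every spo library lay below every wild-type library for both genes. wupA fell by 0.76 (SE 0.04, limma adjusted p = 6.68e-06) and up by 1.08 on the log2 scale (SE 0.06, limma adjusted p = 9.51e-06).

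The calcium-binding subunit, troponin C, is encoded by several paralogs, and their levels did not follow those of troponin I and T. TpnC73F, the most abundant of them, rose from 98.7, 97.9 and 98.0 TPM to 111.9, 118.8 and 110.3 TPM (log2 difference 0.21, limma adjusted p = 0.000826). TpnC47D was measured at 34.2, 36.9 and 36.1 TPM in wild type and at 35.4, 29.9 and 39.6 TPM in spo. Its groups overlapped (log2 difference -0.04, limma adjusted p = 0.737), and spo replicate 2 was the lowest library. TpnC41C, at 1.80, 1.27 and 1.37 TPM in wild type and at 1.96, 1.65 and 2.01 TPM in spo, did not pass (limma adjusted p = 0.118). It passed without wild-type replicate 1 (limma adjusted p = 0.0423). TpnC25D had 1 to 4 reads per library, and its exons overlap those of the abundant gene tkv on the other strand by 54 bases.

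Summed over the 5 troponin C genes, TpnC4 (which is not in the list) included, the level was 139 ± 0.63 TPM in wild type and 155 ± 1.66 TPM in spo (SD, n = 3), higher in 3 of 3 spo libraries (exact permutation p = 0.1). TpnC73F held 70.5% ± 0.63 of the sum in wild type and 73.5% ± 3.18 in spo, and the groups overlapped (exact permutation p = 0.2). The ratio of TpnC73F to wupA TPM, a pair chosen after its values were seen, was 2.49, 2.47 and 2.57 in wild type and 5.07, 5.02 and 4.96 in spo.

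Tropomyosin, the coiled coil along the thin filament, is encoded by Tm1 on 3R, 15278220 to 15308779, and Tm2 on 3R, 15310193 to 15315197, neighbours on the same strand 1413 bases apart. Tm2 fell from 30.4, 32.2 and 30.7 TPM to 23.6, 22.7 and 22.8 TPM (log2 difference -0.42, SE 0.04, limma adjusted p = 6.63e-05). Tm1 was measured at 171.7, 166.7 and 161.5 TPM in wild type and at 164.0, 181.9 and 161.7 TPM in spo. Its groups overlapped, with a log2 difference of 0.02 (SE 0.05, limma adjusted p = 0.725) that turned below 0 with median-of-ratios scaling, without wild-type replicate 3 and without spo replicate 2. Tm1 also makes tropomyosins of the cytoplasmic cytoskeleton, and a value per gene does not separate these from the muscle forms. Tropomodulin, which caps the pointed end of actin filaments and is encoded by tmod, fell from 112.2, 109.6 and 107.9 TPM to 89.1, 98.0 and 87.3 TPM (limma adjusted p = 0.00159).

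Both muscle actin genes that passed the filter were higher in spo, against 33.9% higher over all features tested. So small a count is no result about the actins as a group. Act57B, an actin of embryonic and larval muscle on 2R, 20944021 to 20946431, was the most abundant gene of the list, at 1942.9, 1949.7 and 1965.9 TPM in wild type. It stood at 2432.2, 2218.0 and 2439.6 TPM in spo (log2 difference 0.27, SE 0.04, limma adjusted p = 0.000733), and spo replicate 2 was nearest to wild type. Act87E, another larval muscle actin, stood at 303.3, 307.8 and 306.6 TPM in wild type and at 353.2, 353.3 and 353.5 TPM in spo (log2 difference 0.21, SE 0.02, limma adjusted p = 4.46e-05). The genotypes did not overlap for either gene. A small nucleolar RNA lies within an Act57B exon and had 37794 reads in wild type beside 271788 for Act57B. Actin genes have near-identical coding sequences and the sources used here do not say how reads that match several of them were counted, so the division among paralogs is uncertain.

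Of the summed muscle actin, Act57B held 86.4% ± 0.08 in wild type and 87.0% ± 0.62 in spo (SD, n = 3), and these shares overlapped (exact permutation p = 0.4). The adult muscle actins were near the floor. Act79B, an actin of adult leg and thoracic muscle, had 12 to 26 reads per library and Act88F, that of flight muscle, 1 to 9. Act5C and Act42A, the cytoplasmic actins, summed to 4979.9 ± 31.3 TPM in the wild-type libraries and to 4829 ± 63.2 TPM in the spo libraries (SD, n = 3). The share of Act57B in all 6 actins was 27.0% ± 0.23 and 31.3% ± 1.412, higher in 3 of 3 spo libraries (exact permutation p = 0.1).

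**Figure D3:**
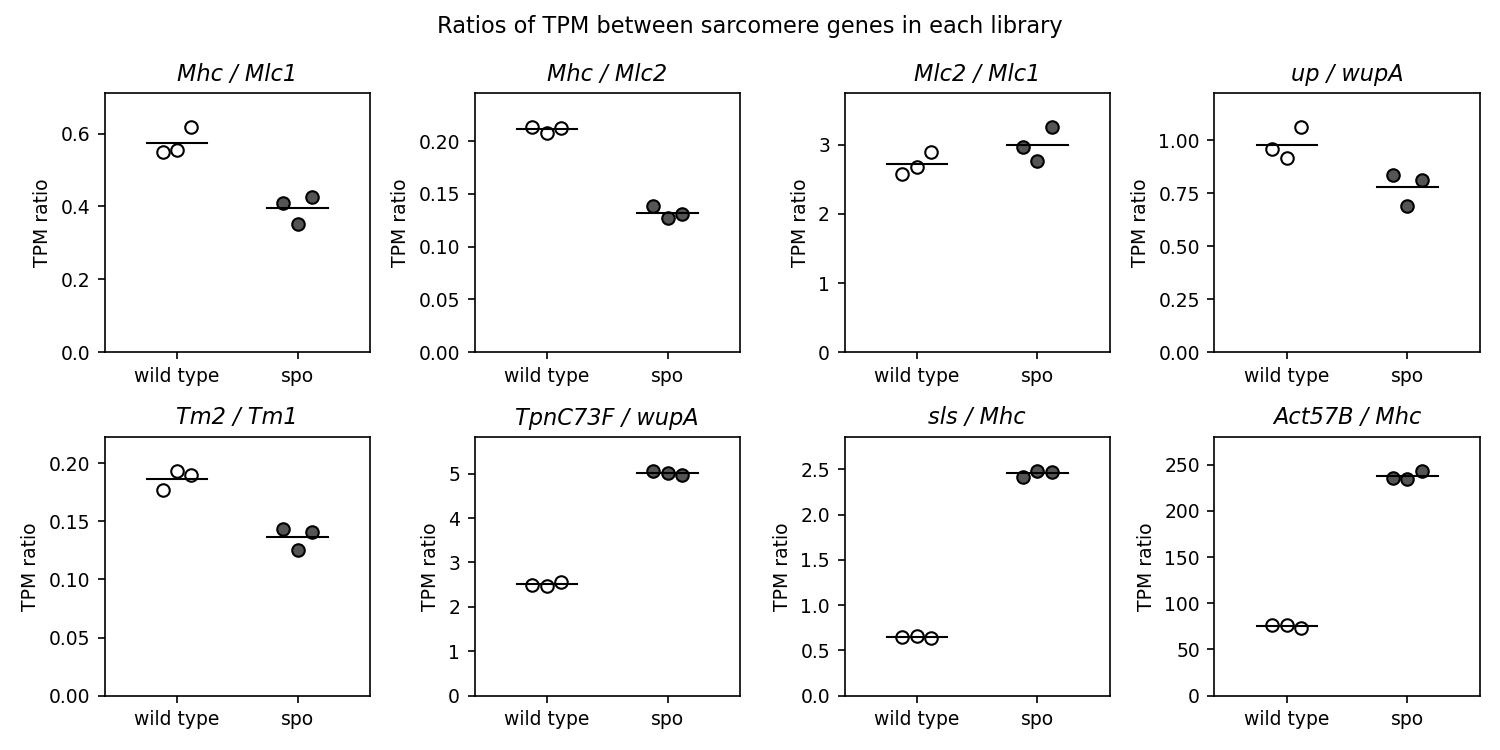
Ratios of TPM between pairs of sarcomere genes in each wild-type (open) and spo (filled) library, each panel with its own linear axis from 0 and a line at the group mean of 3 libraries. The ratios of Mlc2 to Mlc1 overlap between genotypes, and those of the other pairs do not. Of the pairs shown, 5 were chosen after their values were seen and carry no test. They are up to wupA, Tm2 to Tm1, TpnC73F to wupA, sls to Mhc and Act57B to Mhc, so their lack of overlap is no finding.

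Genes of the Z-disc and the titin-type proteins were lower in 6 of 8 tested cases and higher in 1 (75% and 12.5%, against 27.9% lower and 33.9% higher over all features tested). Among those that passed the filter, the muscle LIM protein genes fell most. Mlp60A on 2R, 24074602 to 24078223, went from 8.51, 9.13 and 9.55 TPM to 4.15, 4.07 and 3.86 TPM (log2 difference -1.0005, SE 0.06, limma adjusted p = 1.56e-05). Mlp84B went from 8.13, 7.86 and 7.37 TPM to 4.93, 4.53 and 4.84 TPM (log2 difference -0.61, SE 0.06, limma adjusted p = 0.000126). Both sets of spo libraries lay well below wild type.

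The structural Z-disc genes changed less. Actn, for the actin crosslinker alpha-actinin, fell from 46.0, 46.9 and 48.2 TPM to 38.6, 38.2 and 36.8 TPM (log2 difference -0.31, limma adjusted p = 0.000139). Its exons share 24.4% of their bases with usp, east and CG4313. Zasp52, whose protein binds alpha-actinin, fell from 18.4, 18.8 and 18.1 TPM to 16.7, 16.4 and 16.1 TPM (limma adjusted p = 0.0069). Msp300, a giant nesprin that positions muscle nuclei, fell from 6.72, 6.82 and 7.03 TPM to 5.38, 5.47 and 5.43 TPM (limma adjusted p = 0.00188).

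The 3 genes for titin-type proteins did not move together. sls, on 3L, 2039681 to 2115611, encodes Sallimus and kettin, which link the Z-disc to the thick filament. It rose from 16.5, 16.7 and 17.0 TPM to 24.96, 23.5 and 24.8 TPM (log2 difference 0.52, SE 0.04, limma adjusted p = 3.44e-05), with every spo library above every wild-type library. bt, for projectin, stood at 9.36, 9.45 and 9.23 TPM in wild type and at 8.73, 7.89 and 8.61 TPM in spo. Its genotypes did not overlap, but it missed the threshold (log2 difference -0.14, limma adjusted p = 0.0563) and passed with median-of-ratios scaling (0.0349) and with voom on rebuilt reads (0.0110). Strn-Mlck, for stretchin, was lower at 3.18, 3.14 and 3.16 TPM against 3.52, 3.68 and 3.78 TPM (log2 difference -0.16, limma adjusted p = 0.0486). That call was lost without any 1 of the 6 libraries (limma adjusted p 0.0695 to 0.137), with a pseudocount of 0.1, without the filter and with the replicate number as a block.

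The ratio of sls to Mhc TPM was 0.645, 0.654 and 0.636 in wild type and 2.42, 2.49 and 2.47 in spo, 3.81 times as high on average, with sls 1.46-fold higher and Mhc 2.61-fold lower. The ratio of Act57B to Mhc TPM was 75.3 ± 1.55 and 238 ± 4.64 (SD, n = 3), 3.16 times as high in spo. Both pairs were chosen after their values were seen and are given without a test.

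Zasp66 and Zasp67, for small Z-disc proteins of the same family as Zasp52, lay below 1 TPM. Zasp67 had 20, 16 and 13 reads in wild type and 1, 2 and 2 reads in spo, a pooled rate 9.69 times higher in wild type (exact 95% interval 3.88 to 31.2, counting error only). Zasp66 had 59, 44 and 73 reads in the wild-type libraries and 16, 45 and 13 reads in the spo libraries. Its pooled rate was 2.35 times higher in wild type (exact 95% interval 1.78 to 3.13), and spo replicate 2 lay close to the lowest wild-type library, at 0.604 against 0.657 TPM. Fitted without a filter, Zasp66, Zasp67 and Unc-89 passed among the 8 low genes (limma adjusted p = 0.0339, 0.00588 and 0.0467), against 43.3% of all features in that fit.

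**Figure D4:**
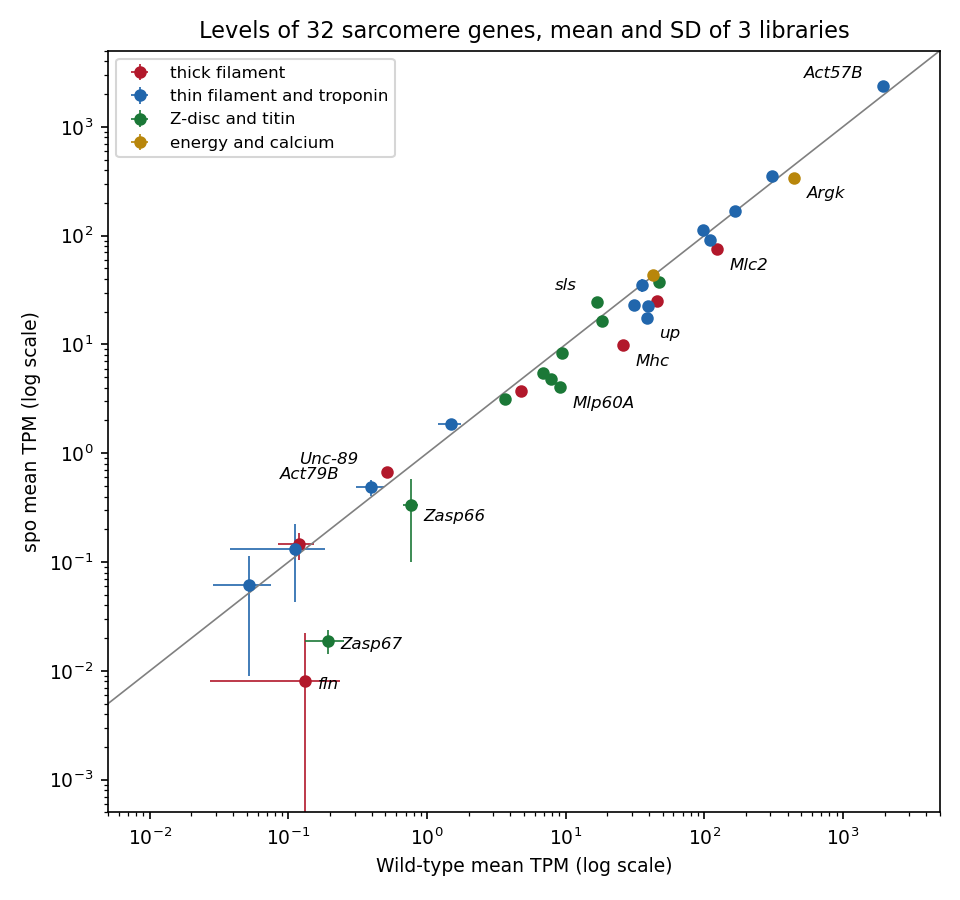
Mean TPM of the 32 sarcomere genes in wild type (horizontal) and spo (vertical), both on log axes, with SD bars over 3 libraries and a line of equality. The lower spo bar of fln runs off the axis because its SD exceeds its mean. The most abundant gene is Act57B, and Zasp67 and fln lie farthest below the line.

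Of the 2 tested energy and calcium genes of the list, Argk and RyR, 1 was lower and 0 higher. Over all features tested 27.9% were lower and 33.9% higher, and so small a count is no result about the group. Arginine kinase, which buffers ATP in insect muscle by storing phosphate on arginine and is encoded by Argk, fell from 441.7, 444.8 and 452.8 TPM to 341.1, 339.9 and 343.7 TPM. Its log2 difference was -0.39 (SE 0.02, limma adjusted p = 5.31e-06), with narrow spread in both genotypes. RyR, the calcium release channel of the sarcoplasmic reticulum, was measured at 41.7, 42.0 and 44.0 TPM in wild type and at 43.9, 41.7 and 43.7 TPM in spo (log2 difference 0.02, SE 0.03, limma adjusted p = 0.647). Ca-P60A, the row of the calcium pump SERCA, stood at 249 ± 1.69 TPM and 250.3 ± 5.07 TPM (SD, n = 3; log2 difference 0.01, SE 0.02, limma adjusted p = 0.834). RyR and Ca-P60A overlapped between genotypes, and their small differences turned below 0 with median-of-ratios scaling.

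Spread within a genotype was small beside most of these differences. Over the 24 tested genes the coefficient of variation had a median of 2.48% in wild type and 3.95% in spo. In spo replicate 2 the value was the highest or the lowest of the spo libraries for 20 of 24 genes (83.3%), near the 81.2% of all features tested. Of the 19 called genes, those other than Strn-Mlck kept their direction and call without that library and without each of the other 5 in turn. Among the 24 genes, 16 had spo libraries all below wild type and 4 had them all above, against 30.8% and 37.6% of all features tested. The log2 difference had a Spearman rho of 0.103 with the wild-type mean and 0.057 with exon length over the 24 genes. In the authors' deposited table, 19 of the 32 genes were lower and 5 higher at a false discovery rate below 0.05, against 21.4% and 21.6% of its 15135 features. Those shares include the many features under the filter used here, so the comparison is not like for like. Of the 24 tested genes, 16 were lower and 4 higher in that table, and its share over the 10019 tested features was not computed.

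Other muscle genes were compared through lists. In a list of 22 other myofibril and muscle attachment genes, 10 were lower and 5 higher (45.5% and 22.7%, against 27.9% lower and 33.9% higher over all features tested), with a median log2 difference of -0.09. Mp20, which encodes a calponin-like protein of synchronous muscle, fell from 14.8, 14.95 and 15.7 TPM to 4.52, 4.46 and 5.69 TPM (log2 difference -1.46, SE 0.09, limma adjusted p = 1.29e-05). That is a steeper fall than that of any tested sarcomere gene, and Mp20 alone of this list passed the test against a log2 change of 0.5, a share of 4.55% beside 4.08% lower over all features tested. The integrin adaptor talin, encoded by rhea, fell from 229 ± 1.66 to 193 ± 2.20 TPM, and the filamin gene cher from 129.6 ± 2.35 to 108 ± 0.19 TPM (SD, n = 3; limma adjusted p = 3.6e-05 and 4.3e-05).

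Among 13 tested genes of calcium handling and excitation, 7 were lower and 3 higher (53.8% and 23.1%, against 27.9% lower and 33.9% higher over all features tested), with a median log2 difference of -0.18. The lower genes included all 5 subunits of the muscle glutamate receptor at the neuromuscular junction, which were picked out after their values were seen. GluRIIA was measured at 1.65, 1.83 and 1.75 TPM in wild type and at 0.665, 0.568 and 0.585 TPM in spo. GluRIIC was measured at 2.48, 2.73 and 2.56 TPM in wild type and at 1.03, 0.955 and 1.21 TPM in spo. GluRIIB fell from 5.63 ± 0.17 to 3.46 ± 0.17 TPM, GluRIID from 6.41 ± 0.20 to 4.49 ± 0.36 TPM and GluRIIE from 1.32 ± 0.14 to 0.576 ± 0.126 TPM. Limma adjusted p for the 5 subunits ran from 0.000136 to 0.0021, and no subunit overlapped between genotypes. GluRIIA and GluRIIE lay below 1 TPM in every spo library and passed the filter through wild type alone. GluRIIC lay below 1 TPM in spo replicate 2 and would not have passed on the spo libraries alone. That GluRIIA, GluRIIC and GluRIIE were called lower therefore lends the count no support. In the other direction, Cam, the calmodulin gene used in all cell types, rose from 91.8 ± 1.09 to 195 ± 16.6 TPM (SD, n = 3; limma adjusted p = 7.52e-06), and Stim, for the sensor of calcium stores, from 62.9 ± 0.78 to 80.5 ± 3.68 TPM (limma adjusted p = 0.000127).

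Genes of cytoplasmic actomyosin, which most cell types use, were lower in 6 of 14 cases and higher in 1 (42.9% and 7.14%, against 27.9% lower and 33.9% higher over all features tested), with a median log2 difference of -0.03. flr, for an actin filament disassembly factor, fell from 99.3 ± 0.86 to 75.2 ± 1.502 TPM. zip, the nonmuscle myosin heavy chain gene, fell from 337 ± 3.85 to 264 ± 8.50 TPM, and Mhcl, for a myosin heavy chain-like protein, from 72.5 ± 0.69 to 47.3 ± 3.26 TPM (SD, n = 3; limma adjusted p at most 4.02e-05 for the 3 genes). Of these 14 genes, 0 passed the test against a log2 change of 0.5, against 4.08% lower and 4.6% higher over all features tested. For a list of this size, 0 is near those shares.

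Of 10 regulators of the mesoderm and muscle, 0 were lower and 3 higher (0% and 30%, against 27.9% lower and 33.9% higher over all features tested), with a median log2 difference of 0.06. The share called higher was near that of all features. Without spo replicate 1, twi, for the mesodermal factor Twist, was called lower. Hand and tin of this list also stand among the heart markers, and bin and bap among the visceral muscle markers. Mef2, the transcription factor that activates many contractile protein genes, was measured at 145 to 146 TPM in wild type and at 157 to 159.9 TPM in spo (log2 difference 0.12, SE 0.02, limma adjusted p = 0.00109). Him, a mesodermal inhibitor of Mef2 activity, rose from 75.7 ± 0.63 to 90.8 ± 5.93 TPM (limma adjusted p = 0.00212). nau, the fly MyoD gene, was measured at 11.6, 11.6 and 10.9 TPM in wild type and at 16.1, 16.4 and 15.9 TPM in spo (log2 difference 0.47, SE 0.04, limma adjusted p = 8.7e-05). The libraries did not overlap for any of the 3 genes.

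**Figure D5:**
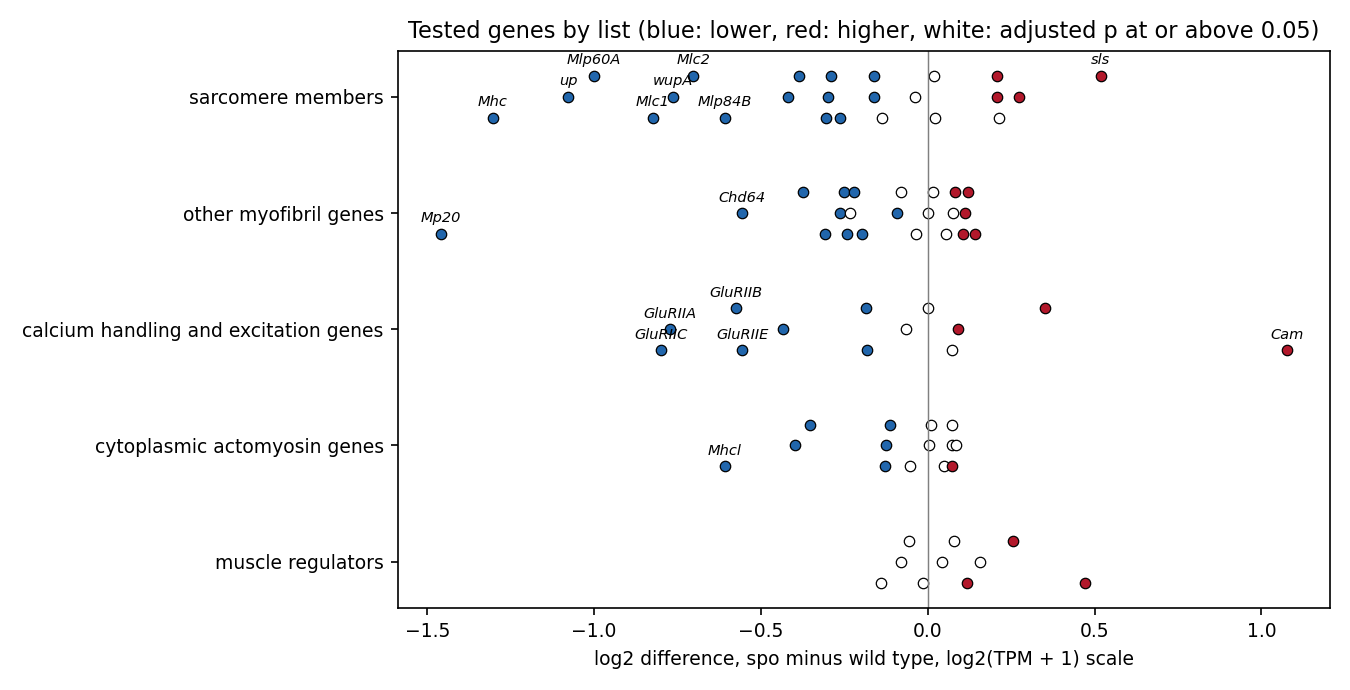
log2 differences (spo minus wild type) of the tested sarcomere genes and of the tested genes in 4 other lists, with genes beyond 0.5 named. Blue points were lower, red points higher and white points did not pass (limma adjusted p of 0.05). The sarcomere genes reach from -1.30 to 0.52, and the muscle regulators have no blue point.

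Markers of other tissues also differed between the libraries, and their part in the results above was not tested. The marker counts below stand beside 27.9% lower and 33.9% higher over all features tested. Summed over 8 heart markers, 3 higher and 0 lower, the level was 263 to 265 TPM in wild type and 284 to 293 TPM in spo. The 3 higher ones were Doc1, Doc2 and Doc3, and the other 5 did not pass. Mean TPM in wild type and spo was 45.7 and 55.8 for Doc1, 29.8 and 36.6 for Doc2, and 21.6 and 27.4 for Doc3. Over 6 visceral muscle markers, 1 higher and 2 lower, the summed level was 515 to 539.8 TPM and 390.1 to 442 TPM. Most of that sum is Fas3, at 465 to 489 TPM and 343 to 398 TPM, and the other 5 summed to 47.6 to 50.98 TPM and 44.2 to 46.9 TPM. Over 8 neuron markers, of which 5 of 7 tested were lower, the summed level was 325 to 348 TPM and 256 to 301 TPM. Most of that sum is elav, at 226 to 241 TPM and 165 to 202 TPM, and Syt1 among the 5 passed the filter through wild type alone. Over 7 epidermal markers, of which 4 of 5 tested were lower, the summed level was 1023 to 1045 TPM and 547 to 593 TPM. Over 5 tracheal markers, 4 lower and 1 higher, it was 321 to 334 TPM and 156 to 161 TPM.

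Over 8 maternal transcripts, 7 of them called higher, the summed level was 7.82 to 8.42 TPM in wild type and 145 to 185 TPM in spo. Of the 7, bcd, swa, twe, tor and osk lay below 1 TPM in every wild-type library and passed the filter through spo alone. Another, wisp, lay below 1 TPM in wild-type replicate 2 (0.963 TPM) and would not have passed on the wild-type libraries alone. The calls of these genes therefore lend that count no support. Over 4 glial markers, 1 higher and 2 lower, the summed level was 294 to 299 TPM and 273 to 279.6 TPM. Over 5 hemocyte markers, of which 2 of 2 tested were lower, it was 92.9 to 95.6 TPM and 78.3 to 81.5 TPM. Over 3 fat body markers, with 1 of 1 tested lower, it was 192 to 198 TPM and 112 to 118 TPM, and over 4 midgut markers, with 3 of 3 tested higher, 21.3 to 23.3 TPM and 35.02 to 40.7 TPM. No listed marker was at 0 in all libraries.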

How the data were processed

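The authors deposited a table of TPM per feature for 6 libraries, and a second table of their own comparison. That table, as deposited, has a log2 fold change, a likelihood ratio score and a p-value per feature, beside false discovery rates and mean log2 CPM. Per the submitters' processing notes, the build was dm6 and the tools were STAR 2.5.3a, Subread's featureCounts, edgeR and FastQC 0.11.2. The sources used here state no annotation release, strand setting or rule for shared reads. Each TPM depends on the rest of its library.

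Groups follow the sample titles. limma 3.58.1 with an intensity trend (R 4.3.3) was fitted to log2(TPM + 1) on genotype alone, for features that reached 1 TPM in 3 or more libraries, and p-values were adjusted over all 10019. Differences are spo minus wild type on this scale, where changes of low genes come out too small, and folds are ratios of mean TPM. Whole reads were rebuilt from the TPM steps (tolerance 0.0001 reads), with the annotated exon length for 14160 of 15135 features and a length found from the values for 975, so totals are approximate. Intervals cover counting error only. Symbols were matched to an Ensembl annotation in dm6 coordinates, and 2 of the 32 genes (Argk, Unc-89) through RefSeq synonyms. Overlap was taken from exons.

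Every member of the list is named. Of the other lists, up to 3 with the smallest p past the threshold are named, beside the glutamate receptor subunits and Act5C, Act42A and Ca-P60A. TpnC4, twi and the genes named for standing in more than 1 list, for the filter or for most of a marker sum lie outside that rule and were chosen after their values were seen. Members, lists and tests were chosen with earlier results of these data known, so no list is independent evidence. Alternatives were other pseudocounts, filters and scalings, a replicate block, a test against a log2 difference of 0.5, voom on rebuilt reads and leaving out each library. Median-of-ratios and upper-quartile factors moved the median difference of all features by under 0.1.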

Additional observations from a re-analysis of the deposited data

How the results depend on the processing

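Tested against a log2 change of 0.5, the 6185 called features became 870 (409 lower and 461 higher), and the 15 lower and 4 higher sarcomere genes became 6 and 0. By the same test, 1 of 22 other myofibril genes was lower and 0 higher. Of 13 calcium and excitation genes, 1 was lower and 1 higher. Of 14 cytoplasmic actomyosin genes, 0 were lower and 0 higher, and of 10 muscle regulators 0 were higher. All features tested had 4.08% lower and 4.6% higher, and such small counts are no result about the lists. With a filter of 5 TPM, which tests fewer genes, 3 calcium and excitation genes were lower. Higher cytoplasmic actomyosin genes went from 1 to 2 with that filter, 2 with the replicate block, 3 with upper-quartile scaling and 4 with voom, and the cause was not tested. Leaving out 1 library gave 5442 to 6469 called features, 14 lower sarcomere genes in each case, 4 to 5 higher ones, 1 to 2 higher cytoplasmic actomyosin genes and 0 to 1 lower muscle regulators. Differences that turned sign were all small and did not pass in any setting. They were Tm1 (-0.0023 with median-of-ratios scaling, -0.0015 without wild-type replicate 3, -0.032 without spo replicate 2, with 0.052 without spo replicate 3 as the other end of the range), TpnC47D (0.067 without spo replicate 2, -0.132 without spo replicate 3) and RyR (-0.0035 with median-of-ratios scaling). The others were Ca-P60A (-0.018 with median-of-ratios scaling, -0.000040 with upper-quartile scaling, -0.0067 without spo replicate 1, 0.022 without spo replicate 2) and Act5C (-0.019 with median-of-ratios scaling, -0.0018 with upper-quartile scaling, -0.0011 without wild-type replicate 3, -0.010 without spo replicate 2, 0.012 without spo replicate 3). Of 333 refits of the 24 sarcomere genes, 303 kept direction and call. With the replicate number as a block, 6086 features were called, with 14 lower and 4 higher sarcomere genes, and Strn-Mlck lost its call. Libraries that share a replicate number had correlations of their deviations of -0.0275, 0.0450 and 0.129, not all above 0.1, and no pairing was assumed. Genes with under 100 reads in every library (Mf, fln, Act79B, Act88F, TpnC25D, Zasp66, Zasp67) are limited by depth.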
